A study of Populus ussuriensis with 18 samples.

Results

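Transcript levels in poplar stem cuttings were compared between 12 h and 24 h after cutting. The compared groups hold 4 libraries, 2 of 12 h and 2 of 24 h, of 18 in the series, chosen by their labelled time after cutting. All were made from total RNA of the lowest 0.5 cm of stem pieces of Populus ussuriensis, cut from in vitro plants 2 weeks of age. The labels name no genotype, transgene or agent for either group, and the plants of both grew at 25 °C on medium with 20 g/L sucrose, under days of 16 h light and 8 h dark. The labelled difference between the groups is the time after the cut. The labels do not say how many plants a library holds, or whether the 2 libraries of a time came from separate cultures, so p-values speak only for the spread between libraries, part or all of which may be technical.

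A stem piece without roots has to close its wound and can then form adventitious roots, which arise from tissue that is not root. Cells at the cut are known to respond to the wound first, and some cells near the vascular tissue later divide and give rise to root primordia. Transcripts of many plant genes also rise and fall daily with light and the internal clock. If all pieces were cut at the same hour, which is assumed here, 12 h and 24 h lie at opposite points of such a day. Under this assumption 24 h, 48 h and 96 h lie at the same point. No uncut pieces of these times are among the libraries, so the daily rhythm and the time since cutting cannot be told apart between 12 h and 24 h. The libraries of 48 h and 96 h show where the changed loci stood at the same point of later days.

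The deposited values are FPKM, a read number divided by the length of the transcript and by the depth of its library. The tables list 65535 transcripts of 36385 loci, ending within prefix 17 of the identifiers, and do not pair identifiers with gene names. No annotation was used here, so functions, genome positions and sequences are not given, and the labelled tissue was not checked against its marker genes. The FPKM of all transcripts of a locus were summed. The read totals recovered from the steps between low values were 28460172 and 28759900 at 12 h and 29308014 and 29311869 at 24 h, and 1 read on a transcript of 2 kb is then worth between 0.0171 and 0.0176 FPKM. Across the tested loci, which do not count as independent replicates, Pearson's r was 0.984 between the 12 h libraries, 0.988 between the 24 h libraries and between 0.950 and 0.956 across the times. Since the tissue is a mixture of cells, a change in the number of cells of a type and a change in RNA per cell cannot be told apart.

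Between 12 h and 24 h many loci changed, most of them by less than 2-fold. Of 23881 loci with at least 1 FPKM in 2 or more of the 4 libraries, 5887 changed, 24.7% of those tested (limma, Benjamini-Hochberg adjusted p below 0.05). At 24 h 2567 loci were higher, 10.7% of those tested, and 3320 were lower, 13.9%. The changes were mostly modest. The median log2 fold change was 0.71 among loci that rose and -0.60 among loci that fell, on the scale of log2(FPKM + 1), against a median standard error of 0.15 over all tested loci. The median of all tested loci was -0.04. The spread used in these tests was estimated from all 16 libraries after cutting. A fit of the 4 compared libraries alone called 4404 loci.

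Lower loci were more numerous, but large changes went mostly upwards. By 1.5-fold or more, 1679 loci rose and 1759 fell. By 2-fold or more, 631 rose and 388 fell, 2.64% and 1.62% of those tested. At least 4-fold, 57 loci rose and 14 fell. At least 8-fold, 14 rose and 1 fell, and at least 16-fold, 3 rose and 0 fell on this scale. Adding 1 FPKM to each value holds down falls towards 0 and rises from near 0. With 0.1 FPKM added, 888 loci were at least 2-fold higher and 698 lower, while 43 rises and 9 falls reached 8-fold, and 9 rises and 1 fall reached 16-fold. With limma-voom on recovered reads, 931 were at least 2-fold higher and 733 lower, while 55 rises and 17 falls reached 8-fold, and 19 rises and 3 falls reached 16-fold. Rises outnumbered falls past each of these folds in both fits.

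**Figure D1:**
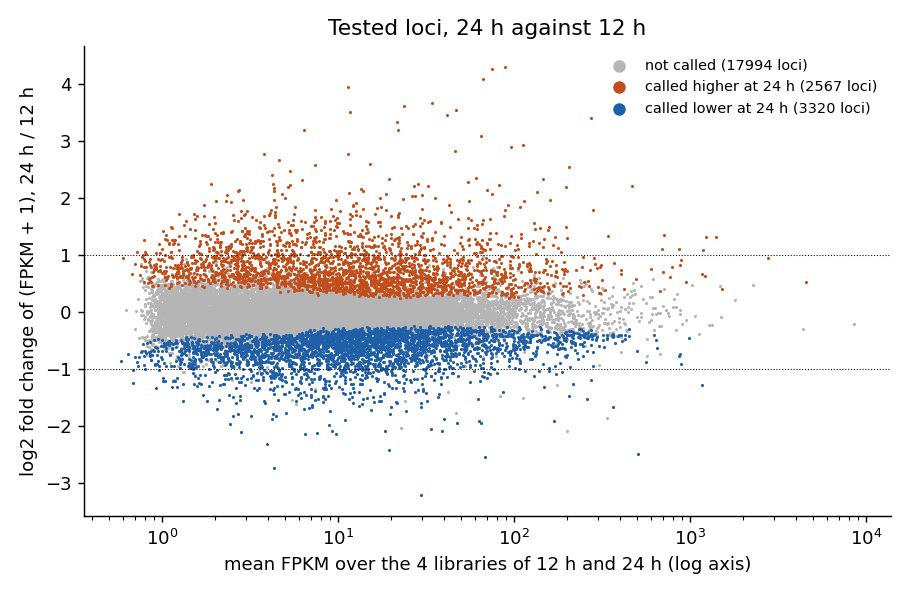
Each point is a tested locus, with its mean FPKM over the 4 libraries on a log axis and its log2 fold change of (FPKM + 1) from 12 h to 24 h; dotted lines mark 2-fold changes. The 2567 loci called higher reach a log2 fold change of 4.29 and the 3320 called lower reach -3.21.

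The number of called loci depends on single libraries. Without the second 24 h library, 3389 loci changed, 1493 upwards and 1896 downwards. Of the 5887 loci, 2289 changed in the same direction in each of the 12 alternative fits that test all of the 23881 loci, which include leaving out each of the 4 libraries. Of these 2289, 1091 were higher and 1198 lower at 24 h. They include 547 of the 631 loci that rose at least 2-fold and 298 of the 388 that fell at least 2-fold.

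Up to 500 FPKM, the share of changed loci was larger at higher levels. It was 16.9% under a mean of 2 FPKM, 43.0% between 100 and 500 FPKM and 37.2% at 500 FPKM or more. Under a mean of 2 FPKM, 8.63% of 2968 loci rose and 8.32% fell. Between 20 and 100 FPKM, 13.9% of 5242 loci rose and 17.6% fell. Between 100 and 500 FPKM, 16.3% of 898 loci rose and 26.7% fell. Among the 78 loci of 500 FPKM or more, 19 rose and 10 fell, 24.4% and 12.8%. More reads give a smaller counting error, and the added 1 FPKM holds down changes at low levels. The part of either in this pattern was not tested.

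**Figure D2:**
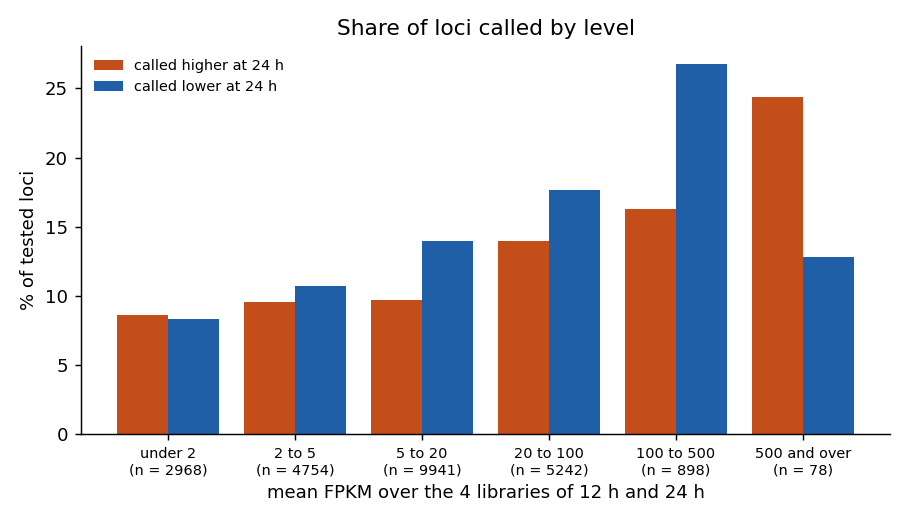
Bars give the percentage of tested loci called higher or lower at 24 h than at 12 h, by the mean FPKM over the 4 libraries, with the number of tested loci under each class. Falling loci reach 26.7% between 100 and 500 FPKM, and rising loci 24.4% among the 78 loci at 500 FPKM and over.

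The 100 loci with the highest mean at 12 h and the 100 with the highest mean at 24 h had 78 in common. Between single libraries, the 100 highest loci shared 85 at 12 h, 96 at 24 h and 77 to 80 across the times, so the overlap across the times was only somewhat below that of the 12 h libraries. A change can itself bring a locus into one of the lists, so changes among the 122 loci in either list are given as examples only. The largest fall among them took a locus from 856 and 879 FPKM at 12 h to 156 and 149.5 FPKM at 24 h (log2 fold change -2.50, SE 0.14, limma adjusted p 2.05e-07). It stayed between 124 and 154 FPKM at 48 h and was between 214 and 234 FPKM at 96 h. The largest rise took a locus from 35.7 and 59.5 FPKM to 568 and 435 FPKM (log2 fold change 3.40, SE 0.29, limma adjusted p 5.24e-06). That locus was between 348 and 404 FPKM at 48 h and between 256 and 267 FPKM at 96 h. In both loci the libraries of 12 h and 24 h did not overlap.

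The largest rise on the scale of log2(FPKM + 1) was that of Potri.008G158000, with 2 listed transcripts of 901 and 884 bp. It had 9.41 and 6.44 FPKM in the libraries of 12 h and 164 and 177 FPKM in those of 24 h, from 239 and 165 reads to 4303 and 4635. The log2 fold change was 4.29 (SE 0.31, limma adjusted p 1.38e-06). The locus had fallen after the cut, from 26.2 and 24.7 FPKM at 0.5 h to 3.85 and 7.35 FPKM at 6 h. Later it had 188 and 247 FPKM at 48 h and 245 and 268 FPKM at 96 h. Its 48 h and 96 h levels differed from 24 h by 0.34 and 0.58 on the log2 scale and did not pass the test (limma adjusted p 0.633 and 0.165).

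The second largest rise on the same scale was that of Potri.008G158200, also with 2 listed transcripts, of 862 and 946 bp. It had 7.90 and 5.35 FPKM at 12 h and 138 and 149 FPKM at 24 h. Its log2 fold change was 4.26 (SE 0.35, limma adjusted p 4.63e-06). It was at 2.76 and 5.38 FPKM at 6 h, at 157 and 225 FPKM at 48 h and at 189 and 199.9 FPKM at 96 h. The order of the 2 rises depended on the fit. Potri.008G158200 rose by 4.46 against 4.45 for Potri.008G158000 with limma-voom on recovered reads, and by 4.22 against 4.02 with the leading transcript. A single listed locus lies between these 2 in the order of identifiers, and it was listed at 0 in all 4 libraries. How reads that match more than 1 locus were placed is not given in the sources used here, so the 2 courses may share reads and are uncertain as separate results.

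The largest fall on the scale of log2(FPKM + 1) was that of Potri.001G147200, with 1 listed transcript of 1300 bp. It had 62.0 and 45.6 FPKM at 12 h and 7.14 and 3.23 FPKM at 24 h, from 2294 and 1704 reads to 272 and 123. The log2 fold change was -3.21 (SE 0.27, limma adjusted p 5.11e-06). This fall ended a pulse. The locus had 0.330 and 0.185 FPKM at 0.5 h, 6.90 and 5.02 FPKM at 2 h and its highest values, 77.9 and 67.2 FPKM, at 6 h. It had 3.22 and 3.17 FPKM at 48 h and 0.878 and 0.611 FPKM at 96 h. The step from 24 h to 48 h did not pass the test (log2 fold change -0.48, limma adjusted p 0.373). The step from 24 h to 96 h passed the test, with a log2 fold change of -1.75 (SE 0.27, limma adjusted p 0.000257).

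The second largest fall on the same scale was that of Potri.014G122000, with 5 listed transcripts of 1181 to 1395 bp. It had 5.85 and 10.8 FPKM at 12 h and 0.102 and 0.629 FPKM at 24 h. The reads summed over its transcripts went from 221 and 411 to 4 and 24. The log2 fold change was -2.74 (SE 0.24, limma adjusted p 7.65e-06). The size of this fall depended on the fit. It was -4.39 with 0.1 FPKM added in place of 1 and -4.88 when limma-voom was run on the recovered reads. With the leading transcript in place of the sum it was -1.96. Leaving out 1 library gave between -3.13 and -2.35. The order of the 2 falls also depended on the fit. Potri.001G147200 fell less with 0.1 FPKM added (-3.44) and with limma-voom (-3.47). It also fell less without replicate 1 of 12 h (-2.99 against -3.13) and without replicate 2 of 24 h (-2.73 against -3.03). Potri.014G122000 was listed at 6.23 and 9.77 FPKM at 0 h, in tables that spread FPKM over transcripts in another way. It had between 0.507 and 1.39 FPKM in the libraries of 0.5 h, 1 h and 2 h, and 8.48 and 9.64 FPKM at 6 h. It was at 0.469 and 0.471 FPKM at 48 h and at 0.288 and 0.223 FPKM at 96 h.

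**Figure D3:**
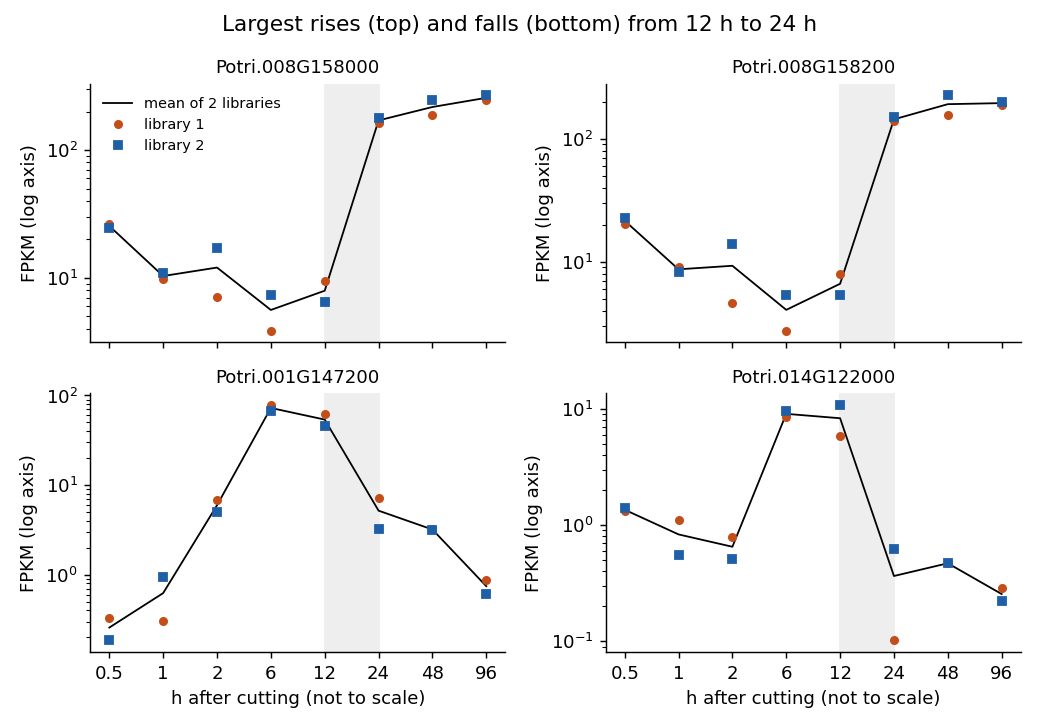
FPKM on a log axis against the time after cutting, spaced evenly and not to scale, for the 2 loci with the largest rise and the 2 with the largest fall between 12 h and 24 h; points are single libraries, lines their means, and the grey band marks the interval compared. In the upper panels the libraries of 24 h stand at 138 to 177 FPKM against at most 9.41 FPKM at 12 h, and in the lower panels the means are highest at 6 h and 12 h.

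The 10 largest rises had log2 fold changes from 3.40 to 4.29 and levels from 0.322 to 59.5 FPKM at 12 h and from 16.6 to 568 FPKM at 24 h. The 10 largest falls had log2 fold changes from -3.21 to -2.10, levels from 4.29 to 879 FPKM at 12 h and from 0.102 to 156 FPKM at 24 h. The highest adjusted p among the 20 was 0.000262 (limma). Since these loci were ranked by this comparison, their sizes are a description. They were taken from changed loci whose libraries of 12 h and 24 h do not overlap. That rule left out few, as 2565 of 2567 rises and all 3320 falls met it. The order of the 20 loci holds on the scale of log2(FPKM + 1), where the added 1 FPKM also holds down rises from low levels. The rise ranked 4 went from between 0.322 and 0.647 FPKM at 12 h to between 16.6 and 27.9 FPKM at 24 h.

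The position of the changed loci at 48 h and 96 h was read from 2 further tests each, against 12 h and against 24 h. A change is called kept at a later time when the difference from 12 h passes the test in the first direction and no move back from 24 h passes it. It is called returned when a move back from 24 h passes the test and the difference from 12 h in the first direction does not. Loci with both calls lie between, and the rest have neither. These comparisons share the libraries of 12 h and 24 h with the first comparison, so the counts are descriptions. The background differs among them. Of all tested loci 15.5% exceeded their 12 h level at 48 h and 20.9% were below it, and for 96 h these shares were 18.1% and 17.8%. Set against 24 h, 2.33% of loci were above and 3.47% below at 48 h, with 17.7% and 13.8% for 96 h. The p-values were adjusted within each comparison. With fewer loci called against 24 h at 48 h, a move back had to reach a smaller p-value there than at 96 h. Kept and returned loci at the 2 later times thus rest on unequal cutoffs, whose part in the counts was not tested.

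By these calls most changes were kept at 48 h. Of the 2567 loci that rose, 2080 (81.0%) were kept, 67 (2.61%) had returned, 16 lay between and 404 had neither call. Of the 3320 loci that fell, 2759 (83.1%) were kept, 67 (2.02%) had returned, 5 lay between and 489 had neither call. Among loci changed at least 2-fold, 591 of 631 rises (93.7%) and 359 of 388 falls (92.5%) were kept. All 10 largest rises and all 10 largest falls were kept at 48 h.

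By the same calls fewer changes were kept at 96 h. The median log2 difference from 12 h, which uses no cutoff at the later time, was 0.73 at 48 h and 0.58 at 96 h among rises. Among falls it was -0.64 and -0.36. Of the rises 1457 (56.8%) were kept and 637 (24.8%) had returned, and of the falls 1527 (45.99%) were kept and 1010 (30.4%) had returned. Among loci changed at least 2-fold, 398 of 631 rises (63.1%) were kept and 115 (18.2%) had returned, and 259 of 388 falls (66.8%) were kept and 68 (17.5%) had returned. At both later times 2664 of the 5887 changes (45.3%) were kept and 86 (1.46%) had returned. A further 1240 (21.1%) were kept at 48 h and had returned at 96 h, and 38 took the opposite order.

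**Figure D4:**
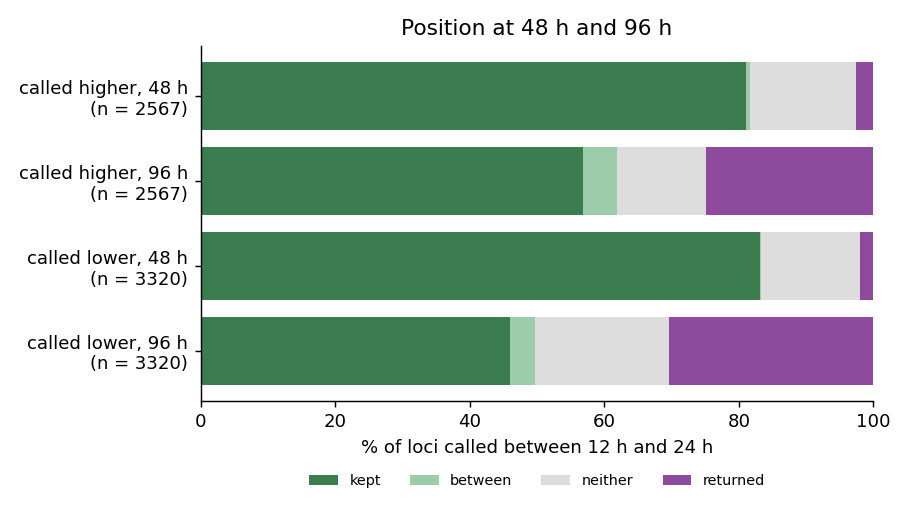
Bars divide the loci called higher (2567) or lower (3320) at 24 h than at 12 h by their position at 48 h and 96 h, in percent of each set: kept, between, neither call, or returned to the side of 12 h. Returned loci take 2.61% and 2.02% at 48 h and 24.8% and 30.4% at 96 h, where the cutoff against 24 h is less strict.

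The levels behind these classes also chose them and are given as a description. The 1333 rises kept at both times had a median of 5.45 and 5.70 FPKM in the libraries of 12 h and 10.5 and 11.1 FPKM at 24 h. They stood still higher later, at 13.1 and 13.5 FPKM at 48 h and 14.7 and 14.6 FPKM at 96 h. The 404 rises kept at 48 h and returned at 96 h had medians of 18.1 and 16.2 FPKM at 12 h and 31.1 and 30.3 FPKM at 24 h. They had 30.5 and 31.6 FPKM at 48 h and were back at 15.6 and 15.4 FPKM at 96 h, so 24 h and 48 h formed a plateau.

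Among the falls, the 1331 kept at both times had medians of 15.4 and 16.2 FPKM at 12 h, 9.25 and 9.12 FPKM at 24 h and 7.14 and 6.87 FPKM at 96 h. The 836 falls kept at 48 h and returned at 96 h had medians of 20.3 and 18.8 FPKM at 12 h and 12.8 and 12.1 FPKM at 24 h. They had 10.7 and 11.3 FPKM at 48 h and 19.4 and 19.6 FPKM at 96 h. The few loci returned at both times were 52 rises and 34 falls. The 52 rises had medians of 18.1 and 15.5 FPKM at 12 h, 21.8 and 24.3 FPKM at 24 h and 15.7 and 14.9 FPKM at 48 h. Their number depends on single libraries of 24 h: the 86 loci became 35 without the first and 37 without the second.

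Of the 2567 rises, 188 (7.32%) were higher still at 48 h than at 24 h and 540 (21.0%) at 96 h (limma), where 2.33% and 17.7% of all tested loci were higher. Of the 3320 falls, 198 (5.96%) were lower still at 48 h and 502 (15.1%) at 96 h, where 3.47% and 13.8% of all tested loci were lower. The shares at 96 h lie near those of all tested loci and are no result about the changed loci. By the same test 12 of the 2567 rises were below their 12 h level at 48 h and 103 at 96 h. Of all tested loci 20.9% and 17.8% were. Of the 3320 falls, 6 were above their 12 h level at 48 h and 71 at 96 h, where 15.5% and 18.1% of all tested loci were. Rises were chosen as low and falls as high at 12 h, which makes such loci few, so these counts are a description.

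Comparisons that use neither the 12 h nor the 24 h libraries gave a separate view of the same loci. All 3 use the 6 h libraries. The spread of a locus was estimated once from all 16 libraries, which favours the same steady loci in every comparison. At 48 h against 6 h, 2058 of the 2567 rises (80.2%) were higher and 70 (2.73%) lower, where 27.5% and 26.9% of all tested loci were. Of the 3320 falls, 2407 (72.5%) were lower at 48 h than at 6 h and 104 (3.13%) higher. At 96 h against 6 h, 1750 rises (68.2%) were higher, against 30.5% of all tested loci, and 1826 falls (55.0%) were lower, against 22.9%. Most loci that changed from 12 h to 24 h thus differed in the same direction between 6 h and the later days.

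If all pieces were cut at the same hour, the first libraries after the cut lie near the same point of the day as 24 h. At 0.5 h against 6 h, 1212 rises (47.2%) were higher and 518 (20.2%) lower, where 26.7% and 34.5% of all tested loci were. Of the falls, 2216 (66.7%) were lower at 0.5 h than at 6 h and 607 (18.3%) higher. The median log2 difference of 0.5 h from 6 h was 0.32 among rises, -0.72 among falls and -0.08 among all tested loci. The wound response of the first hours and the point of the day cannot be told apart in these values.

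Loci that rose at least 2-fold had nearly level medians up to 12 h and a plateau of the median from 24 h on. At 96 h 398 of these 631 loci were kept, 115 had returned and 103 lay between. Relative to 6 h, their median on the log2 scale began at 0.32 after 0.5 h, was 0.01 at 2 h and 0.19 at 12 h, and then 1.56, 1.70 and 1.64 in the last 3 times. Their median level was 4.21 and 4.56 FPKM in the 12 h libraries and 12.8 and 13.8 FPKM in the 24 h libraries. At 0.5 h against 6 h, 284 of these 631 loci (45.0%) were higher and 133 (21.1%) lower, where 26.7% and 34.5% of all tested loci were. The level median thus joins loci that moved both ways. Loci that fell at least 2-fold had like medians at 6 h and 12 h and lower ones from 24 h on. Relative to 6 h, their median began at -0.84 after 0.5 h, was -0.54 at 2 h and 0.002 at 12 h, and then -1.17, -1.24 and -1.01 in the last 3 times. At 0.5 h, 214 of the 388 (55.2%) were lower than at 6 h and 120 (30.9%) higher. Of all tested loci 34.5% were lower and 26.7% higher, so the share of higher loci lies near that of all. The quartiles of the 388 loci at 0.5 h were -1.90 and 1.11, against -0.56 and 0.42 among all tested loci. The median level of the 388 loci was 12.8 and 13.7 FPKM at 12 h and 4.54 and 4.27 FPKM at 24 h. The median of all tested loci lay between -0.29 and 0.07 over the same times.

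**Figure D5:**
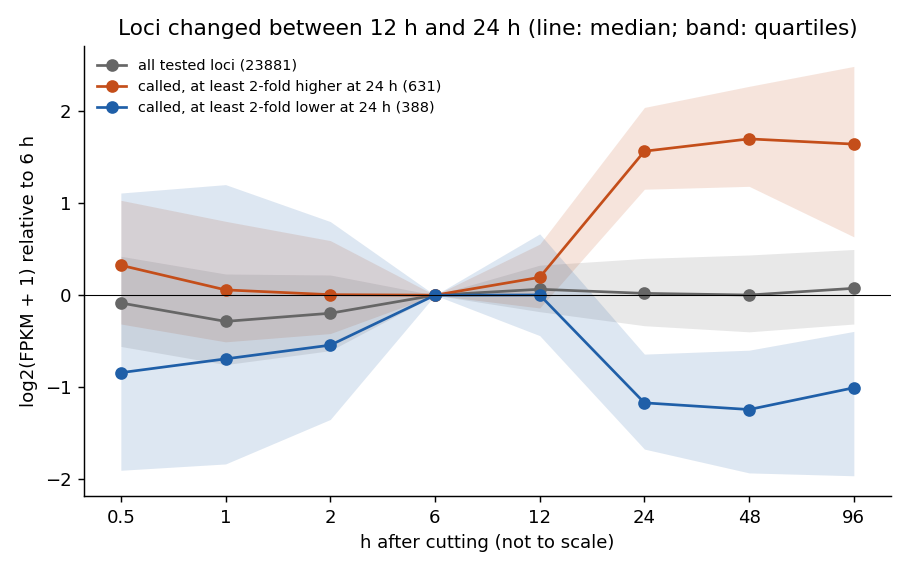
Median (line) and quartiles (band) of log2(FPKM + 1) relative to the 6 h mean of each locus, against the time after cutting, spaced evenly and not to scale. From 24 h to 96 h the median of the 631 loci at least 2-fold higher at 24 h is 1.56 to 1.70. That of the 388 at least 2-fold lower is -1.24 to -1.01, while the median of all 23881 tested loci stays near 0.

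The time of the highest mean was counted for both groups. Of the 3320 falls, 1196 (36.0%) had their highest mean at 6 h and 863 (26.0%) at 12 h. Of the 2567 rises, 548 (21.3%) had it at 24 h, 650 (25.3%) at 48 h and 626 (24.4%) at 96 h. Of all tested loci, 14.95% were highest at 6 h and 10.8% at 12 h, and 6.38%, 11.8% and 21.3% in the last 3 times. The share of rises highest at 96 h thus lies near that of all tested loci. The choice of the loci fixes that no rise can be highest at 12 h and no fall at 24 h, so these counts are a description.

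Neighbours in the order of identifiers were looked at for shared changes, without a test. In 16598 pairs of adjacent listed loci both were tested. After a locus that rose at least 2-fold, the next one did so in 36 of 449 pairs (8.02%), where 2.55% of all next loci did. After a locus that fell at least 2-fold, the next one did so in 17 of 261 pairs (6.51%), where 1.59% of all next loci did. Opposite 2-fold changes were found in 4 pairs in each order. These were 0.89% after a rise and 1.53% after a fall, where 1.59% and 2.55% of all next loci changed that way. Without the 2-fold limit the excess was smaller. After a called rise, the next locus was also called higher in 320 of 1794 pairs (17.8%), where 10.8% of all next loci were. After a called fall, the next was also called lower in 421 of 2300 pairs (18.3%), where 13.8% of all next loci were. The longest runs were 3 adjacent rises, found in 4 places, and 4 adjacent falls, found once. Adjacent loci can be near-identical copies that share reads, and the part of such sharing was not tested.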

How the data were processed

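RNA-seq tables of 18 libraries, 2 for each of 9 times, were read. Per the file headers of the 0 h tables the deposited values are FPKM; the other headers name only the library. The submitters' processing notes name Bowtie2 2.2.3 and HISAT2 2.1.0 but no roles. Genome build, annotation and counting tool: not given in the sources used here. Read totals and transcript lengths were recovered from low FPKM values: of transcripts detected in 6 or more libraries after cutting, all 60197 had a length giving whole reads within 0.01 reads, against 1 of 2000 with shifted values. The totals assume single reads.

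FPKM were summed per locus and analysed as log2(FPKM + 1), for loci with at least 1 FPKM in 2 or more of the 4 compared libraries. A mean per time was fitted to the 16 libraries after cutting with limma 3.58.1 in R 4.3.3 (trend, robust variance). Tests were two-sided, with Benjamini-Hochberg adjustment over all 23881 loci within each comparison. The 0 h libraries were left out because their tables spread FPKM over transcripts in another way. The rule for named loci was the 2 largest rises and the 2 largest falls among called loci with libraries that do not overlap, since identifiers could not be matched to 24 gene lists written as descriptions. These lists were not analysed here. The comparisons with 6 h, the neighbours and the most abundant loci were added after the data were seen. The members and lists were chosen with earlier results of these data known.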

Additional observations from a re-analysis of the deposited data

How the results depend on the processing

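The direction of the 4 named loci and their call held in each alternative that tests them. Fitting the 4 compared libraries alone called 4404 loci, all 18 libraries 5245, quantile normalization 6268 with 48.1% higher in place of 43.6%, and a minimum of 5 FPKM 4817. Lower loci outnumbered higher ones in each alternative. With only the 11949 loci of 1 listed transcript, which tests fewer loci, 2639 changed, 1106 upwards and 1533 downwards, 362 and 239 of them at least 2-fold, 1281 were kept and 45 returned at both later times. Loci at least 2-fold lower numbered 698 with 0.1 FPKM added and 733 with limma-voom on recovered reads, an alternative added after seeing the data. With the leading transcript in place of the sum, also added later, 5206 changed. The fit of 4 libraries gives no value for the later times.

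Without 1 of the 4 libraries, between 3389 and 4231 loci changed, between 1493 and 2014 upwards and between 1896 and 2307 downwards. At least 2-fold, between 627 and 735 were higher and between 395 and 490 lower. Between 1820 and 2056 were kept and between 35 and 81 returned at both later times. The time left with 1 library is assumed to vary like the others.

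With the replicate number as a block, 5740 loci changed. The labels do not say that equal numbers share a culture or day. The differences between replicates 1 and 2 correlated over loci at -0.037 between 12 h and 24 h, and at -0.212 to 0.233 over all 28 pairs of times, so the numbers were not taken to pair the libraries. Depth limits low loci most: at 12 h and 24 h 1 read is worth about 0.0171 to 0.0176 FPKM at 2 kb.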
